A study of Mus musculus with 8 samples.

Results

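The proteases and the reductase that prepare antigen for MHC class II in endosomes and lysosomes were examined in B cells on their way into the germinal center (GC). The set was chosen by function and comprised 8 genes by symbol, Ifi30, Ctss, Ctsb, Ctsd, Ctsl, Ctsz, Ctsh and Lgmn, of 24259 gene symbols in the count table. All 8 were found in that table, and all 8 passed the filter on low counts that left 12744 genes for testing. The sequenced cells were NP-binding, IgD-low, B220+ B cells sorted from the draining lymph nodes 3 days after subcutaneous immunization with NP-OVA (the hapten NP on ovalbumin) plus LPS in alum. The recipients, in the C57BL/6 background, were SAP-deficient, and SAP is an adaptor that T cells need to help B cells into GCs. OT-II T cells, which recognize ovalbumin, were transferred into them 1 day before immunization. In the HET group (4 libraries) the transferred cells were CD4-Cre x Bcl6 fl/+, with a single floxed allele. In the WT group (4 libraries) they carried CD4-Cre with both Bcl6 alleles intact. CD4-Cre and the floxed Bcl6 allele were carried by the transferred T cells only. The sequenced B cells came from the SAP-deficient recipients in both groups. Cells from several recipients of a group were pooled and sorted into 4 repeats of about 200 cells, so p-values measure the spread of sorting and library preparation, and pool and T cell genotype cannot be told apart.

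A B cell that has bound antigen through its receptor takes it into acidic late endosomes, where it must be unfolded and cut before its peptides can be shown to a T cell. The thiol reductase made from Ifi30 (GILT) opens disulfide bonds there. Endopeptidases such as cathepsins S, L and D and the asparaginyl endopeptidase legumain cut within the chain, and cathepsins B, H and Z trim peptide ends. Cathepsin S also removes the last piece of the invariant chain from class II molecules in B cells and dendritic cells, whereas cathepsin L is best known for this step in the thymic epithelium. The peptides shown on class II are what the helper T cell sees, which is why these genes bear on a comparison of 2 kinds of T cell help.

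Total counts ranged from 6652386 to 12559189 per library, and the member with the fewest counts, Ctsl, had 28 to 292 per library. Defining B cell markers were abundant, with the summed level of 10 genes between 12792 and 15970 CPM (counts scaled to library size by TMM). Traces of other cells were present in every library. The summed level of 14 T cell markers was 365 to 695 CPM in HET and 202 to 539 CPM in WT, with Cd4 itself at no more than 0.758 CPM. The 13 macrophage and monocyte markers measured summed to 20.2 to 62.2 CPM in HET and 30.0 to 436 CPM in WT, of which Siglec1 and Fcgr1 were at or near 0, and the 8 dendritic cell markers to 46.1 to 168 CPM and 9.69 to 129 CPM. Neutrophil markers did not exceed 6.82 CPM in sum. A pair of libraries stood apart: HET replicate 1, with 1576 CPM of the antibody-secreting cell gene Jchain while the rest of HET held 10.5 to 97.1 CPM, and WT replicate 2, with 399 CPM of the macrophage gene Lyz2 while the rest of WT held 0 to 28.5 CPM. Lyz2 alone made up most of the macrophage and monocyte marker sum of WT replicate 2.

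Under the adjusted threshold of 0.05 in edgeR's quasi-likelihood test, 0 of the 8 members passed, against 0.0235% of all genes tested. DESeq2 called 1 of the 8, Ifi30, which was lower in HET, against 0.390% of genes called lower by that tool, and called none higher, against 0.296%. At an unadjusted p under 0.05 in edgeR, 3 members were lower in HET (Ifi30, Ctss and Ctsh; background 3.88%) and 0 were higher (background 3.34%, and 7.22% in either direction). In 2 of the 8, Ifi30 and Ctss, every HET value was under the lowest WT value, as in 2.62% of all genes, and in 0 of the 8 was every HET value above WT, as in 1.99%. The other 6 overlapped between the groups. The median log2 fold change of HET over WT was -0.02 over the 8 members and -0.0014 over all genes tested, with 4 members on each side of 0, where 50.1% of all genes were negative. The members' median turned positive without HET replicate 3 (0.03) or WT replicate 4 (0.02). The plot of CPM by library shows each member.

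**Figure D1:**
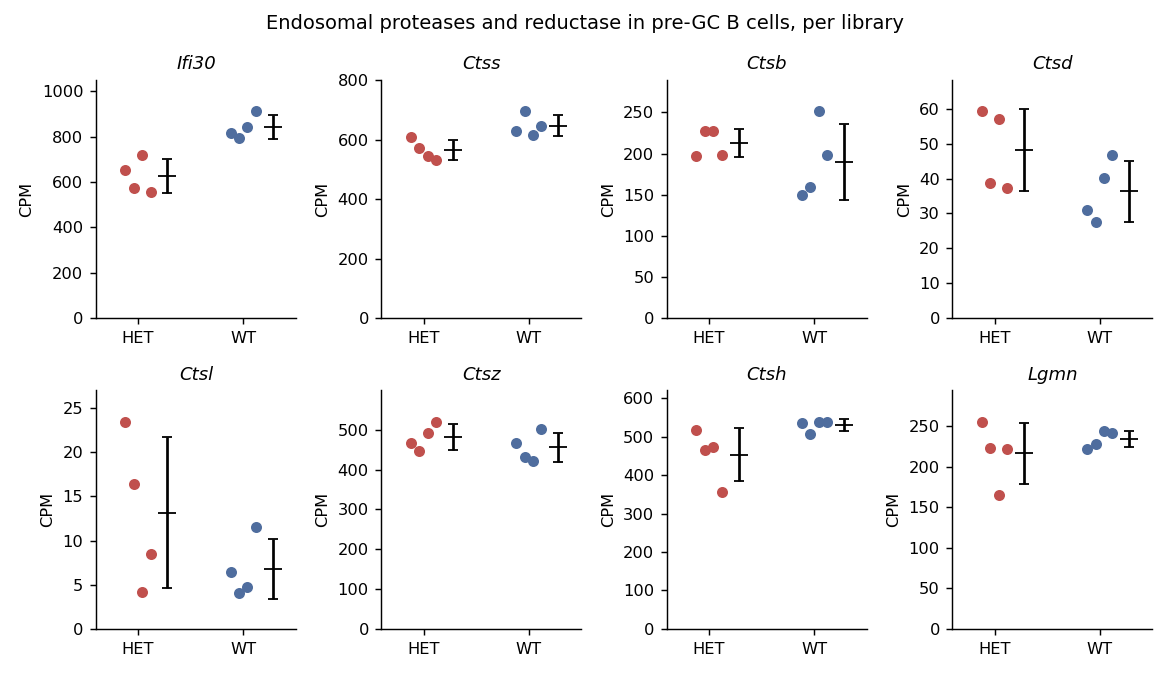
Level of each of the 8 genes in CPM (y axes, from 0) in the 4 HET and 4 WT libraries (points), with the mean and SD of each group (bar). HET points lie below all WT points for Ifi30 (557.5 to 717.5 against 793.2 to 913.0 CPM) and for Ctss, and the groups overlap for the other 6 genes.

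The start regions of members for which RefSeq gave one were read on GRCm38.p6. The 3 shown are those of Ifi30 and Ctss, the members whose groups did not overlap, and of Ctsd, which shared the longest motif with Ifi30. Each line holds the 250 bases before the annotated start, 5′ to 3′ on the gene's strand. Capitals mark CACGTG (the E-box that TFEB, MYC and USF family factors bind), its longer form TCACGTGA, and a pair of GAAA 2 bases apart (the core of the element that IRF family factors bind). Ifi30 is at chr8:70766664-70766913 (minus strand), Ctss at chr3:95526536-95526785 (plus strand) and Ctsd at chr7:142387828-142388077 (minus strand).
Ifi30: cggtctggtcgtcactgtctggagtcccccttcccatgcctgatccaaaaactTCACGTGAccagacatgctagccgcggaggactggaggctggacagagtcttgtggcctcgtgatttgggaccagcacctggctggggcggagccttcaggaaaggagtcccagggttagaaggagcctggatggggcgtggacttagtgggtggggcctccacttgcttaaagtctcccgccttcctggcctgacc
Ctss: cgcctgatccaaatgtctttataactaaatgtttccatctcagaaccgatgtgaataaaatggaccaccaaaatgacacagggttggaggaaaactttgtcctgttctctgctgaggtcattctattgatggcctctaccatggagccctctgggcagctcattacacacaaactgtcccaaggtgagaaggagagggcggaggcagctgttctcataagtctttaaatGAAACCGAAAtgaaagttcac
Ctsd: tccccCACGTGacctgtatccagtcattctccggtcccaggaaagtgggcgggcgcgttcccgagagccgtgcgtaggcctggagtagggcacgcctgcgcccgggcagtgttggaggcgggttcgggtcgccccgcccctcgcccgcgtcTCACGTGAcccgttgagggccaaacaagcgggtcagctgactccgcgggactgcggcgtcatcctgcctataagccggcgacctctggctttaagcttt

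Ifi30 held 1 TCACGTGA, 197 to 190 bases before its start, and Ctsd held 1 TCACGTGA at 99 to 92 bases and a further CACGTG at 245 to 240 bases. TCACGTGA contains CACGTG, so these matches overlap by construction. Searched on both strands, TCACGTGA occurred in 0.785% and CACGTG in 6.02% of 32851 start regions of the same length. CACGTG also occurred once in Ctsl and in 1 of the 2 start regions of Lgmn. All these distances are to RefSeq starts. By GENCODE M21, whose starts differ for Ctsd, Ctsl and Lgmn, the TCACGTGA of Ctsd lies inside the gene, as do the Ctsl and Lgmn regions with CACGTG. The Ifi30 start region lies wholly within 6330537M06Rik, a gene annotated on the opposite strand from 70766579 to 70768220. Ctss held 1 such GAAA pair, 21 to 12 bases before its start, a motif found in 2.98% of regions. RefSeq sequence was at hand for 6 of the 8 members, in 7 start regions.

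Ifi30 (chromosome 8, 70762774 to 70766663 on GRCm38, GENCODE M21) gave the largest shift among the 4 members with lower estimates. It stood at 651.2, 572.6, 717.5 and 557.5 CPM in HET replicates 1 to 4 and at 813.3, 793.2, 843.8 and 913.0 CPM in WT replicates 1 to 4. The lowest WT library lay 75.7 CPM above the highest HET library. HET averaged 624.7 ± 74.3 CPM (SD, n = 4) against 840.8 ± 52.4 CPM (SD, n = 4) for WT, for a log2 fold change of -0.43 (SE 0.09) and a 95% interval of -0.62 to -0.23. This corresponds to a level 25.7% lower in HET. Its unadjusted p of 0.000329 ranked 17 among 12744 genes, which gave an adjusted p of 0.217 in edgeR and 0.0121 in DESeq2. With each of the 8 libraries dropped in turn, the log2 fold change of Ifi30 stayed between -0.50 and -0.38 and the adjusted p in edgeR between 0.168 and 0.531.

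A second transcript unit overlaps Ifi30 on the genome. 6330537M06Rik, annotated on the opposite strand from 70766579 to 70768220, shares 85 exon bases with it, and the library protocol does not mark strand, so reads from the 2 cannot be told apart there. 6330537M06Rik was present at 81.0 to 103 CPM in HET and 116 to 140 CPM in WT, again without overlap (log2 fold change -0.47, SE 0.12, edgeR adjusted p = 0.328, DESeq2 adjusted p = 0.0456). GENCODE M21 lists Ifi30 itself as a processed transcript rather than as protein-coding, a label of that release. Among 4939 other genes whose log2 CPM averaged 5 or more, the one whose log2 CPM followed Ifi30 most closely over the 8 libraries was the class II beta chain H2-Ab1 (Pearson r = 0.98), then Tbc1d17, a gene with a Rab GTPase-activating domain (r = 0.97). These r include the difference between groups, and all points come from the same 2 pools.

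Among the endopeptidases, Ctss (chromosome 3, 95526786 to 95556403) was the most abundant. Its levels were 609.5, 573.2, 544.6 and 532.9 CPM in HET and 629.7, 697.1, 617.0 and 646.5 CPM in WT. The groups did not overlap, but the gap between them was only 7.50 CPM. The means were 565.0 ± 34.1 CPM (SD, n = 4) and 647.6 ± 35.1 CPM (SD, n = 4), for a log2 fold change of -0.20 (SE 0.08) and a 95% interval of -0.36 to -0.03 (edgeR adjusted p = 0.612, DESeq2 adjusted p = 0.383). Ctss varied little between repeats: its within-group SD of 0.08 on the log2 scale was larger than that of only 11.0% of the 200 genes nearest in level. WT replicate 2, the library high in Lyz2, was the highest for Ctss. Of the other macrophage markers, Csf1r (16.9 CPM) and Cd68 (11.8 CPM) were lower there than in WT replicate 3 (18.7 and 15.9 CPM). Marco (2.03 CPM) and Fcgr1 (1.22 CPM) were highest in WT replicate 2, at low levels. The part of macrophage RNA in the Ctss value was not tested. The genes with the most similar pattern were Bach2, a repressor of plasma cell fate (r = 0.96), and Strbp, an RNA-binding protein gene (r = 0.93).

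Ctsl (chromosome 13, 64359337 to 64370890) was the scarcest member. It stood at 23.5, 16.5, 4.20 and 8.49 CPM in HET and at 6.46, 4.06, 4.80 and 11.6 CPM in WT. HET replicates 1 and 2 were the highest and HET replicate 3 was near the lowest WT library. The log2 fold change was 0.97 (SE 0.51) with a 95% interval of -0.12 to 2.07 (edgeR adjusted p = 0.732). With each library dropped in turn, the log2 fold change ranged from 0.53 (without HET replicate 1) to 1.37 (without WT replicate 4). Without both HET replicate 1 and WT replicate 2 it was 0.35. Dendritic cell markers summed to 168, 129, 59.2 and 46.1 CPM in HET and 9.69, 15.6, 73.2 and 129 CPM in WT. The highest library of each group was the same for this sum as for Ctsl. This was also so for the 6 antibody-secreting cell markers (1980 CPM in HET replicate 1 and 419 CPM in WT replicate 4). The dendritic cell markers did not move alike: of 6 tested, 3 had a positive and 3 a negative log2 fold change. Siglech had the highest mean in HET (57.6 CPM, against 11.2 CPM in WT) and Cd209a in WT (18.8 CPM, against 3.76 CPM in HET). Flt3 was at 15.6 to 26.1 CPM in HET and 5.80 to 12.3 CPM in WT (DESeq2 adjusted p = 0.0147), without overlap, as in 1.99% of all genes. The part of dendritic or antibody-secreting cells in the Ctsl values was not tested. The gene most like Ctsl was Bst2 (r = 0.95), an interferon-induced gene, followed by Parp9 (r = 0.92). All 1742 exon bases of the antisense gene Gm47123 lie within exons of Ctsl, and the pseudogene Gm49230 also overlaps them, so without strand their reads cannot be told apart from those of Ctsl.

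Ctsd (chromosome 7, 142375911 to 142388038), the aspartic protease of the set, stood at 59.4, 38.7, 57.1 and 37.3 CPM in HET and 30.9, 27.4, 40.3 and 46.8 CPM in WT. HET replicates 1 and 3 lay above every WT library, and HET replicates 2 and 4 lay within the WT range. The means were 48.1 ± 11.7 CPM (SD, n = 4) and 36.3 ± 8.82 CPM (SD, n = 4), for a log2 fold change of 0.41 (SE 0.23, edgeR adjusted p = 0.764). With each library dropped in turn, the value ranged from 0.29 (without HET replicate 1) to 0.55 (without WT replicate 4). It was 0.17 without both libraries that stood apart. The gene model Gm49369 covers 808 exon bases of Ctsd (34.4%) in GENCODE M21 and has no row in the count table, so how reads in that stretch were assigned is unknown.

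Lgmn (chromosome 12, 102394084 to 102439813), which encodes legumain, was at 255.6, 222.9, 165.1 and 221.3 CPM in HET and 222.2, 228.4, 243.6 and 242.0 CPM in WT. The HET libraries spanned the WT range on both sides, with replicate 1 above it, replicate 3 below it and replicate 4 just below its lowest library. The means were 216.2 ± 37.6 CPM (SD, n = 4) and 234.0 ± 10.4 CPM (SD, n = 4), for a log2 fold change of -0.11 with a 95% interval of -0.38 to 0.15 (edgeR adjusted p = 0.891). Without HET replicate 3 the log2 fold change came to -0.002, and without HET replicate 1 to -0.20.

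The 3 enzymes that trim peptide ends gave estimates on both sides of 0. Ctsh (chromosome 9, 90054152 to 90076089), an aminopeptidase, was at 518.4, 466.6, 473.6 and 355.8 CPM in HET and at 534.9, 507.2, 539.3 and 539.5 CPM in WT. Only HET replicate 1 reached into the WT range, and HET replicate 4 was the lowest. The means were 453.6 ± 69.1 CPM (SD, n = 4) and 530.2 ± 15.5 CPM (SD, n = 4), for a log2 fold change of -0.23 (SE 0.10, unadjusted p = 0.0496 in edgeR, adjusted p = 0.688). Without HET replicate 4 the log2 fold change was -0.12, and without HET replicate 1 it was -0.29.

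Ctsz (chromosome 2, 174427493 to 174439039), a carboxypeptidase also called cathepsin X, was at 466.4, 446.0, 491.6 and 520.9 CPM in HET and 467.7, 431.9, 422.0 and 502.4 CPM in WT. The libraries of both groups were interleaved. The log2 fold change was 0.08 with a 95% interval of -0.11 to 0.26 (edgeR adjusted p = 0.896), the narrowest interval of the set after that of Ctss. Ctsb (chromosome 14, 63122462 to 63145923), which can cut within the chain as well as from its end, was at 196.7, 227.7, 227.4 and 198.8 CPM in HET and 150.0, 159.9, 252.0 and 198.8 CPM in WT. The WT libraries spread more widely (190.2 ± 46.3 CPM, SD, n = 4) than the HET libraries (212.7 ± 17.2 CPM, SD, n = 4), and WT replicate 3 held the highest value of all 8. The log2 fold change of Ctsb was 0.16 with a 95% interval of -0.16 to 0.48 (edgeR adjusted p = 0.867), 0.33 without WT replicate 3 and 0.06 without WT replicate 1. Relative to the 200 genes nearest in level, the within-group SD of Ctsb (0.25 on the log2 scale) exceeded 89.5% and that of Ctsl (0.88) exceeded 86.5%, while that of Ctsz exceeded 21.0%. Ctsb shares 774 exon bases with the neighboring gene Fdft1 on the opposite strand, which was at 21.8 to 67.8 CPM in the 8 libraries.

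**Figure D2:**
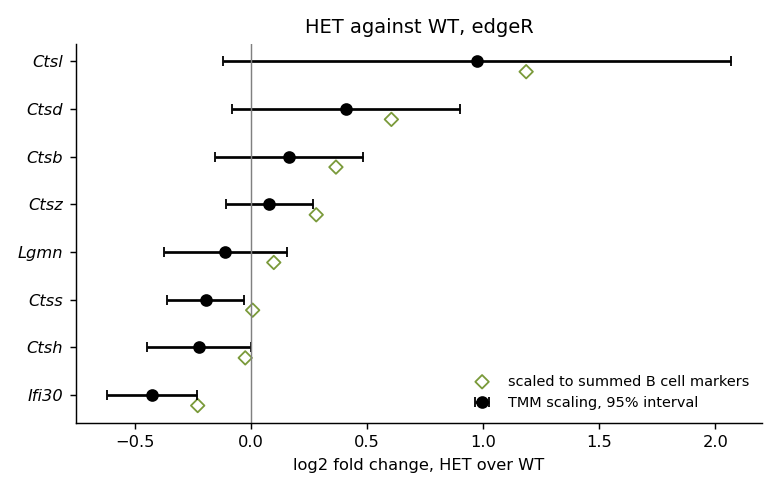
Log2 fold change of HET over WT (x axis) for the 8 genes (y axis, ordered by value) in edgeR, as black points with 95% intervals under TMM scaling and as open diamonds when library sizes were set by the sum of 10 B cell markers. The interval lies below 0 for Ifi30 (-0.62 to -0.23) and Ctss (-0.36 to -0.03) and only touches 0 for Ctsh, and the diamond of Ctss lies at 0.006.

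Levels of different genes can be compared only per length, and the deposited TPM did not allow this directly. For 97.8% of 10995 genes, the length that the TPM values imply was within 1% of a fixed multiple of the mean genomic span of the gene's annotated transcripts with introns included. The spliced length of the principal transcript gave such a match for 0.828% of these genes. Genes with long introns therefore have low values there: by deposited TPM, Ctss held place 4 of the 8 members with 61.8 TPM on average over the 8 libraries, below Ctsz (122 TPM) and Ctsh (120 TPM). Per kilobase of spliced transcript, Ctss came next to the top with 447 CPM per kb on average, after Ifi30 with 747 CPM per kb. Ctsz (325), Ctsh (304), Lgmn (123), Ctsb (42.5), Ctsd (19.9) and Ctsl (5.04 CPM per kb) followed. In each of the 8 libraries Ifi30 lay above Ctss (by 1.38 to 1.95 times) and Ctss above Ctsz (by 1.09 to 1.72 times). Ctsz and Ctsh changed places: Ctsz was higher in 4 of 4 HET libraries and in 1 of 4 WT libraries, and their ranges overlapped. All other neighbors in this order kept it in 8 of 8 libraries. A single spliced length was used per gene, 4743 bases for Ctsb and 981 to 2127 bases for the other members. The order rests on that choice, and other transcript forms were not tried. Ifi30 made up 32.4% to 37.8% of the summed level of the 8 members in HET and 38.3% to 40.6% in WT on this scale.

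**Figure D3:**
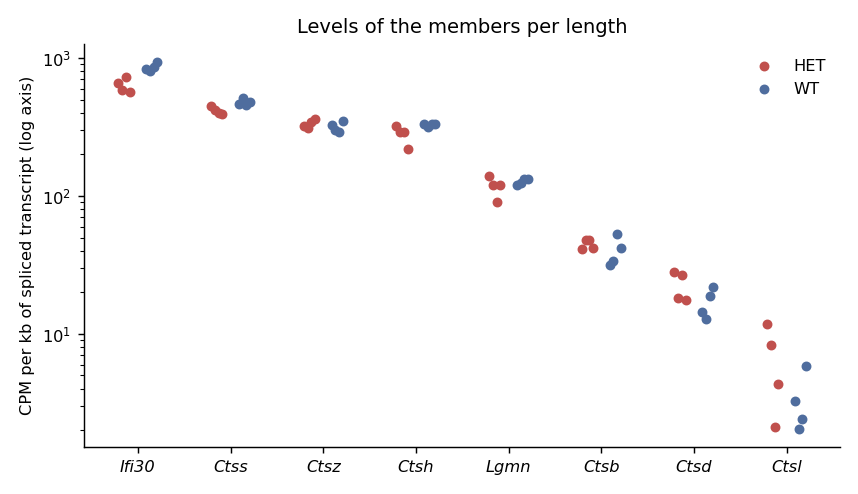
Level of the 8 genes in CPM per kb of spliced transcript (y axis, logarithmic) in each HET (left of each gene) and WT (right) library, ordered by the mean over the 8 libraries. Levels run from 747 CPM per kb for Ifi30 to 5.04 CPM per kb for Ctsl, and the ranges of Ctsz and Ctsh overlap.

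In these bulk libraries, a smaller share of B cells and less of a transcript per B cell cannot be told apart. The summed level of 10 B cell markers (among them Cd79a, Cd79b and Ms4a1) was 12792 to 14520 CPM in HET and 15266 to 15970 CPM in WT, without overlap. All 10 had a negative log2 fold change (median -0.21), 8 of them at an unadjusted p under 0.05 in edgeR, and 0 passed the adjusted threshold in edgeR. DESeq2 called Cd22 (adjusted p = 0.0159). When library sizes were set by this sum, which raised all genes nearly alike and moved the median of all genes tested to 0.20, the log2 fold change of Ifi30 was -0.23 (SE 0.09, edgeR adjusted p = 0.236). As a percentage of the B cell marker sum, Ifi30 was at 4.91, 4.25, 4.94 and 4.36 in HET and 5.23, 5.17, 5.28 and 5.98 in WT, so its groups still did not overlap, as in 0.691% of all genes in that direction. Ctss was at 3.75 to 4.59 in HET and 3.86 to 4.55 in WT and overlapped fully, with a log2 fold change of 0.006. Ctsh came to -0.03. Ctsz was at 3.31 to 4.07 in HET and 2.64 to 3.29 in WT, with every HET value above every WT value, as in 8.18% of all genes under this scaling (log2 fold change 0.28, SE 0.10, edgeR adjusted p = 0.219). Over the 8 members the median was 0.19, with 6 positive and 2 negative. Measured from the median of all genes, Ifi30 was at -0.43 under both scalings, Ctss at -0.20 under both and Ctsz at 0.08 under both. Subtracting that median takes out the near-uniform shift, so these values match by construction and do not test the scaling. The same holds for the lists that follow, whose scaled medians lie about 0.20 above those under TMM.

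**Figure D4:**
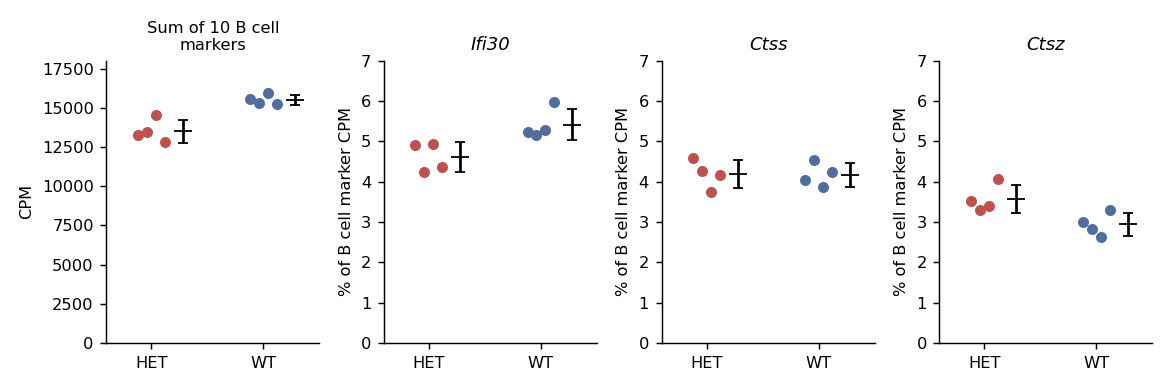
Sum of 10 B cell markers in CPM (left) and the levels of Ifi30, Ctss and Ctsz as a percentage of that sum (y axes, from 0) in the 4 HET and 4 WT libraries (points), with mean and SD (bar). Ifi30 remains lower in all HET libraries (4.25 to 4.94 against 5.17 to 5.98), Ctss overlaps, and Ctsz is higher in all HET libraries (3.31 to 4.07 against 2.64 to 3.29), as are 8.18% of all genes on this scale.

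The genes that work beside these enzymes were described by lists chosen by function. MHC class II and its loading machinery, where the peptides end up, had a negative log2 fold change in 11 of 11 genes, against 50.1% of all genes (median log2 fold change -0.31, and -0.11 when scaled to B cell markers). None passed the adjusted threshold in edgeR, 9 of 11 had an unadjusted p under 0.05 in that direction (3.88% of all genes), and 6 of 11 did not overlap (2.62% of all genes). The invariant chain gene Cd74, substrate of cathepsin S, averaged 11197 ± 376 CPM (SD, n = 4) for HET against 14139 ± 1079 CPM (SD, n = 4) for WT, for a log2 fold change of -0.34 (SE 0.05, edgeR adjusted p = 0.0770, DESeq2 adjusted p = 0.00868). DESeq2 also called H2-Eb1 (log2 fold change -0.31, adjusted p = 0.0456) and Ciita, the coactivator of class II transcription (log2 fold change -0.44, adjusted p = 0.0121). H2-Ab1, the other most abundant gene of this list, had a log2 fold change of -0.24 (edgeR adjusted p = 0.328). The log2 fold change of Ifi30 (-0.43) was of the size of Ciita's, and that of Ctss (-0.20) was smaller than any in the class II list, where the smallest in size was that of H2-DMb2 (-0.21).

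Of 28 other lysosomal hydrolases and membrane proteins, 24 had a negative and 4 a positive log2 fold change, with a median of -0.19 under TMM scaling and 0.02 when scaled to B cell markers. Measured from the median of all genes under B cell marker scaling, it was -0.18. In edgeR 6 of the 28 had a negative value with an unadjusted p under 0.05 (background 3.88%), 4 of the 28 did not overlap between groups (2.62% of all genes), and 0 passed the adjusted threshold, nor did any in DESeq2. The lowest p value was that of Mcoln1, the lysosomal calcium channel (39.5 ± 8.56 CPM for HET against 64.7 ± 8.33 CPM for WT, SD, n = 4, log2 fold change -0.71, edgeR adjusted p = 0.362). The most abundant genes of this list were Laptm5 (log2 fold change -0.16) and Pld4 (-0.15).

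Among 5 other cathepsins tested, 4 had a negative log2 fold change (median -0.17, and 0.02 when scaled to B cell markers). At an unadjusted p under 0.05 in edgeR, 2 were lower in HET (background 3.88%) and 1 was higher (background 3.34%). Of the 5, 0 passed the adjusted threshold in edgeR or DESeq2. Ctsa, a lysosomal carboxypeptidase, averaged 256.8 ± 21.8 CPM (SD, n = 4) for HET against 308.5 ± 24.5 CPM (SD, n = 4) for WT. Its groups did not overlap, as in 2.62% of all genes (log2 fold change -0.26, edgeR adjusted p = 0.599). Ctsc and Ctse, the most abundant, came to -0.17 and -0.16. Ctsw, known from cytotoxic lymphocytes, went the other way with 18.8 to 47.8 CPM in HET and 17.6 to 25.1 CPM in WT. Its log2 fold change was 0.80 (in edgeR an unadjusted p = 0.0121 and an adjusted p = 0.571). All 13 T cell markers tested also had a positive log2 fold change (median 0.58), and their part in the Ctsw value was not tested.

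The remaining lists held 0 genes at an unadjusted p under 0.05 in edgeR and 0 called by DESeq2. The inhibitors of cysteine proteases (4 tested) had a median log2 fold change of 0.02 (0.22 when scaled to B cell markers), with Cst3 (cystatin C) at 0.15, Serpina3g at -0.18 and Cstb at -0.12. The mannose 6-phosphate sorting genes (8 tested), which bring new hydrolases to the lysosome, had a median of -0.12 (0.08 when scaled to B cell markers and -0.01 without HET replicate 4), with the receptor M6pr at 0.07, the adaptors Gga2 at -0.12 and Gga1 at -0.35, and Nagpa at 0.37. For the vacuolar proton pump (17 tested), which acidifies the compartment, the median was -0.10 (0.09 when scaled to B cell markers), with Tcirg1 at -0.34, Atp6v0d1 at -0.32, Atp6v1f at 0.03 and Atp6v0e at -0.06. The phagocyte oxidase, which works against reduction in endosomes, had a median of -0.01 over 6 genes (0.19 when scaled to B cell markers), with Cyba at -0.01, Rac2 at -0.03 and Ncf1 at -0.13. Transcription factors of lysosomal and antigen presentation genes (6 tested) had a median of -0.04 (0.17 when scaled to B cell markers), with Spi1 (PU.1) at -0.19, Irf8 at -0.05 and Tfe3 at 0.15.

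**Figure D5:**
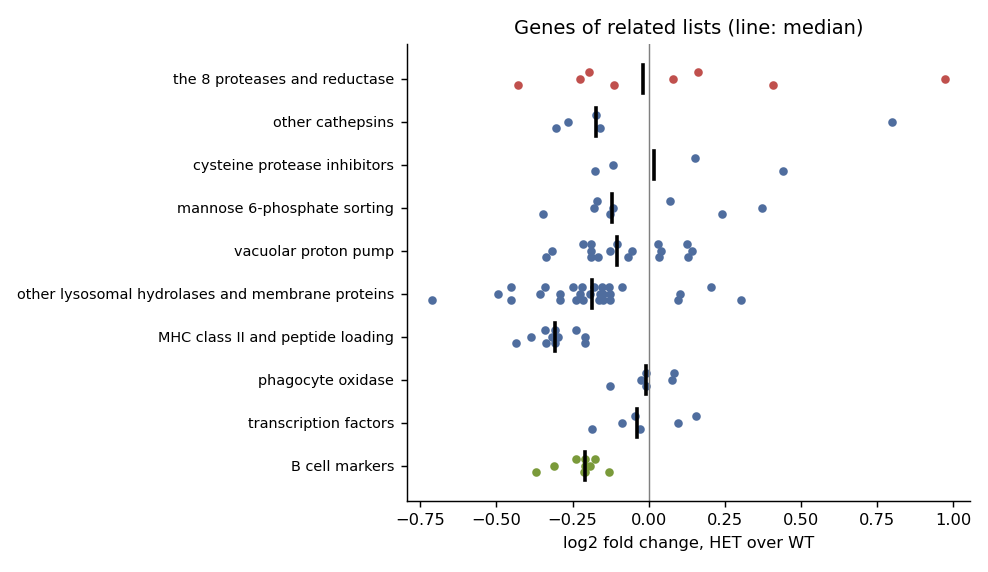
Log2 fold change of HET over WT in edgeR (x axis) for each gene (points) of the 8 proteases and reductase, of 8 related lists and of the B cell markers, with the median of each list as a vertical line. The members spread from -0.43 to 0.97 around a median of -0.02, whereas all 11 class II genes and all 10 B cell markers lie below 0.

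The genes with the most similar pattern to the remaining members were Marf1 (r = 0.94) and Tmem59 (r = 0.93) for Ctsb, Pik3r4 and Dcaf12 for Ctsd (both r = 0.93), Vps53 and Sertad2 for Ctsz (both r = 0.95), Pxdc1 and Sec11a for Ctsh (both r = 0.96), and Prdm2 (r = 0.99) and Ube3b (r = 0.93) for Lgmn. Each is Pearson's r of log2 CPM over the same 8 libraries, given as a description of the best of 4939 or 4940 genes.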

How the data were processed

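RNA-seq libraries of pre-GC B cells, 4 HET and 4 WT, were grouped by their titles. The authors made the libraries with an adapted SMART-Seq2 protocol, aligned reads to GRCm38 with HISAT2 2.2.1 (submitters' processing notes) and deposited HTSeq read counts per gene symbol. The annotation release, strand setting and treatment of multiply aligned reads are not given in the sources used here. The deposited TPM values divide the counts by a genomic span. SMART-Seq2 has no molecular identifiers, so the floor of 3 counts (0.241 to 0.455 CPM) covers counting error only. The 95% intervals come from the fit over 4 libraries a group and carry the spread between them.

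Genes were kept by filterByExpr and HET was compared with WT in R 4.3.3 with edgeR 4.0.16 (TMM, robust quasi-likelihood F-test, Benjamini-Hochberg over 12744 genes, threshold 0.05). SE is the log2 fold change over the square root of F. Alternatives used DESeq2 1.42.0 and limma 3.58.1 (log2 of TPM plus 1 or 0.1), other scalings and filters, a replicate block and left-out libraries. The scaling to B cell markers, the levels per spliced kilobase and the fit without HET replicate 1 and WT replicate 2 were chosen after seeing the data. Positions came from GENCODE M21 and start regions from RefSeq, both on GRCm38.

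The members and gene lists were chosen with earlier results of these data known. All members were named. Of each list, the 2 genes with the lowest p and the 2 highest levels were named, and for each member the 2 genes of most similar pattern. Genes outside this rule (6330537M06Rik, Gm47123, Gm49230, Gm49369, Fdft1, Ciita, H2-DMb2 and marker genes) were named after their values were seen. Some items that this rule or the motif search covers are not reported here. The fit was tested on simulated data.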

Additional observations from a re-analysis of the deposited data

Results flagged for a closer look

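Of 16 groups of 4 CPM values examined (8 members in HET and WT), 1 held a library unusually far from the rest, where chance marks about 1 in 20. Ctsh in WT replicate 2 was at 507.2 CPM while the rest of WT held 534.9 to 539.5 CPM, a gap of 0.856 of the range of the group. The WT range of Ctsh was narrow (SD 15.5 CPM, n = 4), and without WT replicate 2 its log2 fold change was -0.24 against -0.23 with all libraries.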

How the results depend on the processing

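In edgeR 3 genes were called between HET and WT. The count was 95 in DESeq2, 38 with no filter, 7 with a mean of at least 50 counts, 6 with limma-voom and sample weights, 6 when scaled to B cell markers, 1 with limma-trend on log2(TPM + 0.1), 0 with limma-trend on log2(TPM + 1) (1192 at an unadjusted p under 0.05), and 1 to 6 when each library in turn was dropped, with 6 reached without WT replicate 1 and 1 without WT replicate 3 or any HET library. Of the members, Ifi30 passed in 2 of 11 other settings, DESeq2 (log2 fold change -0.43, adjusted p = 0.0121) and edgeR with no filter (-0.43, adjusted p = 0.0248), over a range of adjusted p from 0.0121 to 0.745. Its sign held in all 19 settings, and the other 7 members passed in none. Scaled to B cell markers, Ctss turned from -0.20 to 0.006 and Lgmn from -0.11 to 0.097, and the median of the 8 members from -0.02 to 0.19, because that scaling moves the median of all genes tested to 0.20. The sign of Ctsb, Ctsd, Ctsl, Ctsz and Ctsh held in 19 of 19 settings. The order of the members by deposited TPM was kept at 4 of 8 places by CPM and at 3 of 8 places per spliced kilobase. With the replicate number as a block, 0 genes passed in edgeR (912 at an unadjusted p under 0.05) and no member's call changed. Same-numbered libraries did not deviate together (r from -0.05 to 0.01), and 1 of 4 HET libraries correlated best with its own number. Ctsl had the fewest counts of the members, 28 to 292 per library, and its repeats varied more than most genes of like level. The causes of the other shifts were not tested.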
